A study of Mus musculus with 6 samples.

Results

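The stefin A genes are a cluster of related protease inhibitor genes on mouse chromosome 16, and 8 of them were described here: Stfa1, Stfa2, Stfa3, Stfa2l1, BC100530, BC117090, Gm5483 and 2010005H15Rik. They were picked by symbol from the 47593 gene rows of the expression table because their values rose together, so their differences between the groups are given as a description with no test. All 8 reached the minimum level that a gene needed for testing, a mean of 10 over all libraries, as did 12991 of all gene rows. RNA-seq had been made from mouse bone marrow cells of the femur selected for c-Kit, a receptor tyrosine kinase of blood progenitors. These cells were infected with the retrovirus MSCVneo carrying MLL-AF9, a leukaemia fusion of the chromatin regulator MLL with AF9, then selected on G418 and passaged serially in methylcellulose with cytokines. The E531R group, 3 libraries, carried the fusion with the E531R substitution in AF9, and the WT group, 3 libraries, carried the unchanged fusion. By its title the series concerns the loss of binding between AF9 and the corepressor BCoR. Both groups thus carried a virus-borne fusion gene beside their own MLL and AF9 genes. No strain, age or sex is used here, and the source of the replicates (separate animals, separate cultures or neither) is unstated, so all p-values measure only the spread between these libraries, which may be technical.

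Stefins are small cystatins without a signal peptide that stay inside the cell and bind lysosomal cysteine proteases of the papain family reversibly, among them cathepsins B, H, L and S. The protein enters the active site cleft of the protease with its amino-terminal end and 2 hairpin loops, and the first loop is the most conserved stretch of the family. Mice carry an expanded cluster of stefin A copies, and stefin A transcripts are known from neutrophilic granulocytes and from the epidermis.

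The copies fell into 4 sequence groups when genes sharing at least 90% of aligned coding bases were joined. Stfa1, BC100530 and BC117090 formed a group of 3, Stfa2 and Stfa2l1 a group of 2, Gm5483 and 2010005H15Rik another group of 2, and Stfa3 stood alone. Within these groups coding identity ran from 94.4% to 97.9% over 5 pairs, and between them from 77.7% to 84.5% over 23 pairs. The closest pair was Stfa1 and BC100530 at 97.9%. Each coding sequence was spread over 3 exons, with 384 bases in the transcript of Stfa1 used here, 309 in Stfa2, Stfa3 and Stfa2l1, 291 in BC100530, Gm5483 and 2010005H15Rik, and 288 in BC117090. The stretches below show how far the groups differ at the conserved part of the protein. They are the 60 coding bases around the first hairpin loop, whose 5 codons begin at base 31, taken from GENCODE M21 transcripts and read 5′ to 3′ on the coding strand. Capitals mark bases unlike Stfa1.
Stfa1: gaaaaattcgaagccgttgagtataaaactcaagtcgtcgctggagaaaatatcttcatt
BC100530 and BC117090: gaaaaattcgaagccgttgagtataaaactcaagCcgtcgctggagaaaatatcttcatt
Stfa3: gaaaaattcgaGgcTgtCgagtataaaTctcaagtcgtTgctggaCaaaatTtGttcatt
Gm5483 and 2010005H15Rik: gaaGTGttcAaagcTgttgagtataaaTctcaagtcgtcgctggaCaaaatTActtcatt
Stfa2 and Stfa2l1: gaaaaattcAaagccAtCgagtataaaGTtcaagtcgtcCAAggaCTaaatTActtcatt
BC100530 and BC117090 shared 1 stretch that differed from that of Stfa1 at 1 base, inside the loop. Stfa3 differed at 8 bases, Gm5483 and 2010005H15Rik at the same 9, and Stfa2 and Stfa2l1 at the same 12. A read lying inside this stretch could therefore not be told apart between BC100530 and BC117090, Gm5483 and 2010005H15Rik, or Stfa2 and Stfa2l1.

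**Figure D1:**
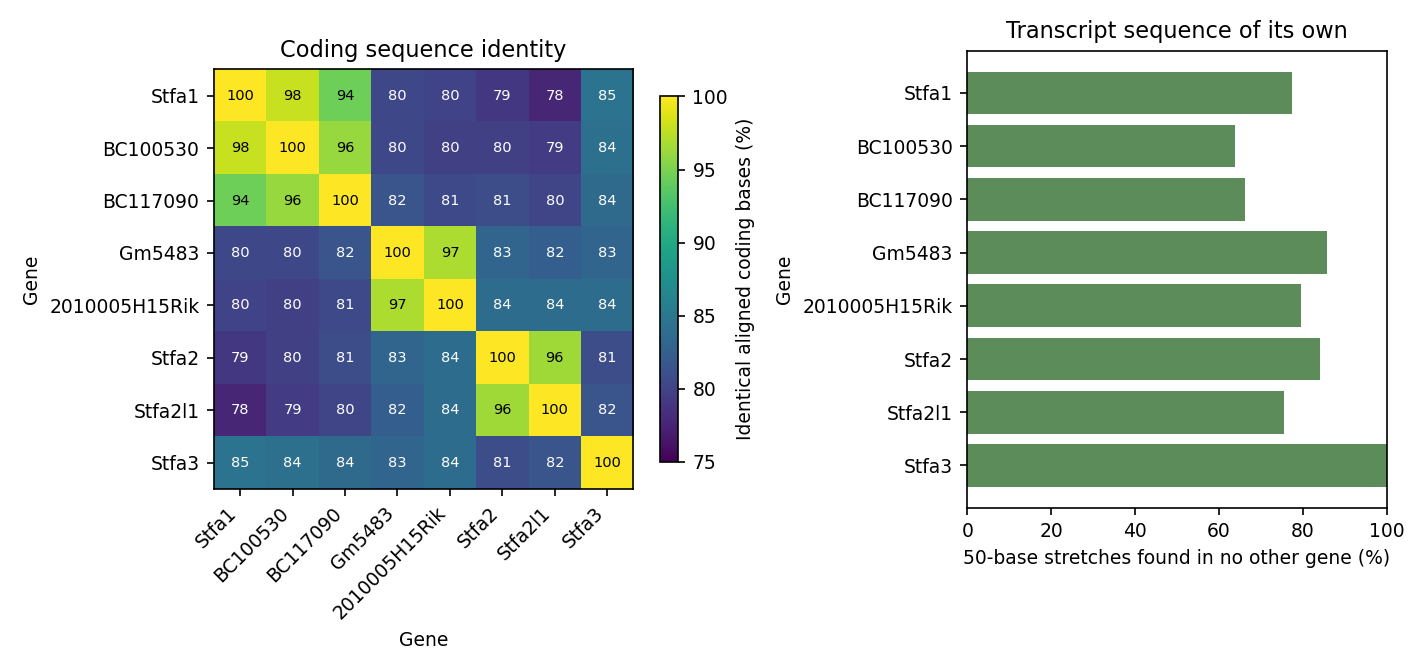
Left, percent of identical coding bases for each pair of the 8 stefin A genes (rows and columns), with the colour scale running from 75% to 100%. Right, percent of the 50-base stretches of each gene's annotated transcripts that occur in no other annotated gene; BC100530 had the lowest share at 63.8% and Stfa3 the highest at 100%.

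How much of each copy can be counted on its own bears on every value that follows. Of the 50-base stretches in a gene's GENCODE transcripts, the share found in the transcripts of no other gene was 100% for Stfa3, 85.8% for Gm5483, 84.1% for Stfa2, 79.6% for 2010005H15Rik and 77.5% for Stfa1. It was 75.4% for Stfa2l1, 66.3% for BC117090 and 63.8% for BC100530. BC100530 shared 17.5% of its stretches with Stfa1, and BC117090 shared 27.2% of its stretches with BC100530. The read length and the handling of reads that match several genes are unknown here, so levels within a sequence group may be incomplete or partly shared between copies. Stfa3 had no such overlap.

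On the chromosome the 8 genes lay within 36156811 to 36455392 (GRCm38, GENCODE M21). Stfa2l1 (36156811 to 36161953), Gm5483 (36184212 to 36188111), 2010005H15Rik (36221468 to 36257444) and Stfa1 (36276951 to 36285373) are annotated on the plus strand. BC117090 (36321665 to 36334332), BC100530 (36359382 to 36367748), Stfa2 (36403992 to 36408457) and Stfa3 (36450537 to 36455392) follow on the minus strand. RefSeq names Gm5483 Cstdc4, 2010005H15Rik Csta2, BC117090 Cstdc6 and BC100530 Cstdc5. In this order Gm5483 and 2010005H15Rik are adjacent members, as are Stfa1, BC117090 and BC100530, while Stfa2 and Stfa2l1, 96.4% identical, lie apart on opposite strands.

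Because the genes rose together, the sequence before their starts is shown for the 3 genes whose printed bases lie in no annotated GENCODE exon before the start. RefSeq windows of 300 bases (250 before to 50 after the start, GRCm38.p6) matched 7 of the 8 genes, all but BC117090. The stretches printed hold 110 bases before and 10 after the RefSeq start. Capitals mark the 3 runs of at least 10 bases that begin before the start and are shared by all but 1 of the 7 windows.
Stfa2l1 (chr16:36156701-36156820, plus strand): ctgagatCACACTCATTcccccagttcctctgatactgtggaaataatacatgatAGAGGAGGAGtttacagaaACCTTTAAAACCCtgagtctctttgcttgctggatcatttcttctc
Gm5483 (chr16:36184102-36184221, plus strand): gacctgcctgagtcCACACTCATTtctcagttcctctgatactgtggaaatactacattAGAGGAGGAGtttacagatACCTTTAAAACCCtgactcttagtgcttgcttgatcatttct
Stfa3 (chr16:36455383-36455502, minus strand): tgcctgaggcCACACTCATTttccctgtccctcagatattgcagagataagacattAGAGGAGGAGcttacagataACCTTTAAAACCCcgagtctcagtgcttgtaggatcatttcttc
Searched on both strands, ACCTTTAAAACCC was present in 9 of 32851 RefSeq windows of this length, or 0.0274%. Of these 9 windows, 6 belonged to the 8 genes described here, and the genes of the remaining windows were not looked up. AGAGGAGGAG was present in the same 6 windows and in 1.03% of all windows, and CACACTCATT in the same 6 and in 0.113% of all windows. The 6 were those of Stfa1, Stfa2, Stfa3, Stfa2l1, BC100530 and Gm5483, and 2010005H15Rik held none of the 3 runs. ACCTTTAAAACCC began 32 to 36 bases before the start in 5 genes and 12 bases before it in BC100530, with 9 bases between it and AGAGGAGGAG, or 10 in Stfa3. In Stfa1, Stfa2 and BC100530 an annotated GENCODE transcript starts further upstream, so there ACCTTTAAAACCC and AGAGGAGGAG lie in an exon of that transcript. In 2010005H15Rik 94 of the 110 bases before the RefSeq start also lie in an annotated exon, and windows at other starts were not searched. TTTAAA, which is part of ACCTTTAAAACCC, was in the same 6 windows and in 13.2% of all windows. TTGCNNAA, a core of C/EBP sites, was in Stfa1 and BC100530 and in 10.8% of all windows. TGANTCA, the core of AP-1 sites, was in Stfa3 after the start and in 7.81% of all windows. TATAAA was in 0 of 7 and in 13.6% of all windows, and GAGGAAGT, a PU.1-type sequence, in 0 of 7 and in 3.2%. The copies are related, so a shared run describes their likeness, and whether any of these runs acts in the genes' expression was not tested.

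The libraries held between 14161139 and 33459668 reads assigned to genes. Kit, used for the selection, averaged 3335 ± 4.07 in E531R cells and 3587 ± 99.96 in WT cells (SD, n = 3 each, normalised read count), and Itgam, a myeloid integrin, 7490 ± 95.6 in E531R cells and 2746 ± 107 in WT cells. WT replicate 3 stood apart: with it, limma called 1349 genes higher (10.4%) and 1238 lower (9.53%) in E531R cells at an adjusted p under 0.05, 19.9% in all, and without it 3159 and 2999, 47.4% in all. Whether a change reflects the number of cells of a type or the RNA per cell cannot be told apart in bulk samples.

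In E531R cells the stefin A genes were between 12.1-fold and 66.3-fold higher than in WT cells. Their summed normalised read count was 24817, 27106 and 27720 in the E531R libraries, against 1705, 1873 and 2021 in the WT libraries. The sum averaged 26548 ± 1530 in E531R cells and 1866 ± 158 in WT cells (SD, n = 3 each), 14.2-fold higher in E531R cells. Reads of the 8 genes made up 0.114% ± 0.00614 of all gene reads in E531R cells and 0.00807% ± 0.000462 in WT cells. In all 8 genes the 3 E531R values lay above the 3 WT values, as they did in 21.2% of all tested genes; the genes were chosen for this, so nothing is read from that count. Likewise 10.4% of all tested genes were called higher in E531R cells. The median log2 fold change was 3.95 over the 8 genes (range 3.60 to 5.93), against 0.01 over all tested genes, and 0.801% of tested genes had a log2 fold change at or above the smallest of the 8.

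**Figure D2:**
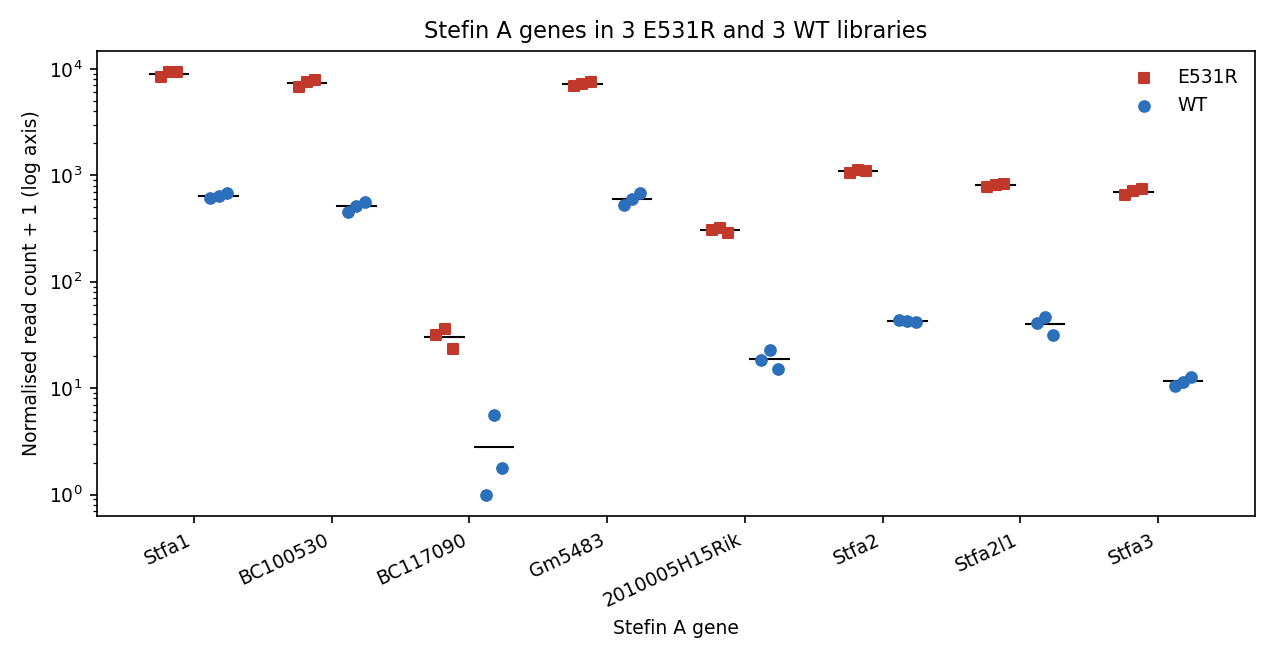
Normalised read count plus 1 on a log y axis for each stefin A gene (x axis), with red squares for the 3 E531R libraries, blue circles for the 3 WT libraries and bars at group means. E531R values lie above WT values in all 8 genes, and the distance is largest for Stfa3, at 649.7 to 743.7 in E531R libraries and 9.58 to 11.8 in WT libraries.

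Stfa1, stefin A1, had the highest normalised read count of the 8 genes, also per kilobase of annotated exon. Per kilobase the place of Gm5483 is not settled, as described below. The normalised read count of Stfa1 was 8303, 9304 and 9372 in the E531R libraries, against 616, 635 and 683 in the WT libraries. The lowest E531R value was 12.2 times the highest WT value. Stfa1 averaged 8993 ± 598 in E531R cells and 645 ± 34.2 in WT cells (SD, n = 3 each), 13.95-fold higher in E531R cells, with a log2 fold change of 3.80 (SE 0.079).

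BC100530, 97.9% identical to Stfa1 and on the opposite strand, came next per kilobase of annotated exon. It had 6789, 7573 and 7793 in the E531R libraries, against 452, 515 and 564 in the WT libraries. The groups were far apart, and the fold of 14.5 was close to that of Stfa1, with a log2 fold change of 3.86 (SE 0.10). The level of BC100530 relative to Stfa1 was 82.1% ± 0.927 in E531R cells and 79.0% ± 4.998 in WT cells (SD, n = 3 each), and these values overlapped between the groups. The copies cannot be told apart where their transcripts are identical, and the part of this in their like values was not tested.

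BC117090, the third copy of this sequence group, was barely present. It had 44, 36 and 23 reads in the E531R libraries, against 0, 4 and 1 reads in the WT libraries. These are normalised read counts of 30.6, 35.03 and 22.4 in the E531R libraries, against 0, 4.59 and 0.787 in the WT libraries, where 3 reads in WT replicate 1 would be 4.79. It passed the minimum level only through the E531R libraries. Its log2 fold change of 3.79 (SE 0.63) had the largest standard error of the 8 genes and was 1.74 when 10 instead of 1 was added before taking logs. BC117090 stood at 0.400% ± 0.0979 of BC100530 in E531R cells and 0.344% ± 0.479 in WT cells, with overlap between the groups. A share of its reads that stems from BC100530 was not measured.

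Gm5483 had the smallest log2 fold change of the 8 genes over all libraries with 1 added before the log. With 10 added BC117090 (1.74) and 2010005H15Rik (3.51) lay below its 3.58, as did BC117090 (3.24) without WT replicate 1. Gm5483 had 6916, 7229 and 7564 in the E531R libraries, against 527, 598 and 676 in the WT libraries. It averaged 7236 ± 324 in E531R cells and 600.4 ± 74.8 in WT cells (SD, n = 3 each), 12.1-fold higher in E531R cells, with a log2 fold change of 3.60 (SE 0.10). The groups did not overlap.

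2010005H15Rik is 96.9% identical to Gm5483 in its coding bases, and its level per exon length was far lower. It had 309, 322 and 284 in the E531R libraries, against 17.6, 21.8 and 14.2 in the WT libraries. It was 17.1-fold higher in E531R cells, with a log2 fold change of 4.04 (SE 0.18). Relative to Gm5483 it stood at 4.23% ± 0.405 in E531R cells and 3.03% ± 0.820 in WT cells (SD, n = 3 each), and each E531R ratio was above each WT ratio.

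Stfa2 and Stfa2l1, the group with the most differences from Stfa1 around the loop, had lower levels per exon length and larger folds than Stfa1 and BC100530. Stfa2 had 1051, 1117 and 1106 in the E531R libraries, against 43.1, 41.3 and 40.9 in the WT libraries. Its WT values lay close together, and it was 26.1-fold higher in E531R cells, with a log2 fold change of 4.67 (SE 0.088). Stfa2l1 had 769, 816 and 836 in the E531R libraries, against 39.9, 45.9 and 30.7 in the WT libraries. It was 20.8-fold higher in E531R cells, with a log2 fold change of 4.36 (SE 0.16). Stfa2l1 relative to Stfa2 was 73.9% ± 1.45 in E531R cells and 92.9% ± 18.1 in WT cells (SD, n = 3 each), and these ratios overlapped between the groups.

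Stfa3, the copy with no close relative in the cluster, had the largest fold. It had 649.7, 710.4 and 743.7 in the E531R libraries, against 9.58, 10.3 and 11.8 in the WT libraries. The WT values rest on 6, 9 and 15 reads, and the E531R values on 935, 730 and 764 reads. Stfa3 averaged 701 ± 47.7 in E531R cells and 10.6 ± 1.14 in WT cells (SD, n = 3 each), 66.3-fold higher in E531R cells. The lowest E531R value was 55.0 times the highest WT value. Its log2 fold change of 5.93 (SE 0.13) ranked 5 among the 12991 tested genes, while the other members ranked between 26 for Stfa2 and 104 for Gm5483. Adding 10 instead of 1 before the log brought it to 5.11, still the largest of the 8 genes. All 8 genes were chosen for their rise, so the ranks are a description.

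Levels of different copies can be compared only per length. Per kilobase of annotated exon, Stfa1 averaged 12666 in E531R cells and 908 in WT cells, BC100530 9348 in E531R cells and 646 in WT cells, and Gm5483 3886 in E531R cells and 322 in WT cells. The exon length of Gm5483, 1862 bases, includes a transcript with a retained intron, which lowers its value per kilobase. Its place relative to Stfa1 and BC100530 is therefore not settled. Stfa2 averaged 2317 per kilobase in E531R cells and 88.7 in WT cells, Stfa2l1 1926 in E531R cells and 92.7 in WT cells, and Stfa3 1702 in E531R cells and 25.7 in WT cells. 2010005H15Rik had 477 per kilobase in E531R cells and 27.9 in WT cells, and BC117090 had 75.8 in E531R cells and 4.63 in WT cells. With these annotated lengths, the order held in E531R cells with no overlap between neighbouring genes. In WT cells Stfa2 and Stfa2l1 overlapped, at 86.9 to 91.5 and 73.3 to 110 per kilobase, and so did Stfa3 and 2010005H15Rik, at 23.2 to 28.7 and 22.2 to 34.1.

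The copies kept most of their proportions, and Stfa2, Stfa2l1 and Stfa3 took a larger part of the sum in E531R cells. Stfa1 made up 33.9% ± 0.436 of the summed normalised read count in E531R cells and 34.6% ± 1.33 in WT cells (SD, n = 3 each), and BC100530 27.8% ± 0.395 in E531R cells and 27.3% ± 0.723 in WT cells, both with overlapping values. Gm5483 made up 27.3% ± 0.600 in E531R cells and 32.1% ± 1.29 in WT cells, with no overlap. These 3 genes together held 88.9% ± 0.262 of the sum in E531R cells and 94.0% ± 0.969 in WT cells. Stfa2 held 4.11% ± 0.122 in E531R cells and 2.25% ± 0.254 in WT cells, and Stfa2l1 3.04% ± 0.0505 in E531R cells and 2.10% ± 0.510 in WT cells. Stfa3 held 2.64% ± 0.0367 in E531R cells and 0.566% ± 0.0167 in WT cells, 4.67 times the share. For Stfa2, Stfa2l1 and Stfa3 each E531R share was above each WT share. Stfa3 relative to Stfa1 was 7.80% ± 0.152 in E531R cells and 1.64% ± 0.0883 in WT cells. 2010005H15Rik held 1.15% ± 0.113 in E531R cells and 0.965% ± 0.239 in WT cells, and BC117090 0.111% ± 0.0264 in E531R cells and 0.0947% ± 0.132 in WT cells, with overlap in both genes.

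**Figure D3:**
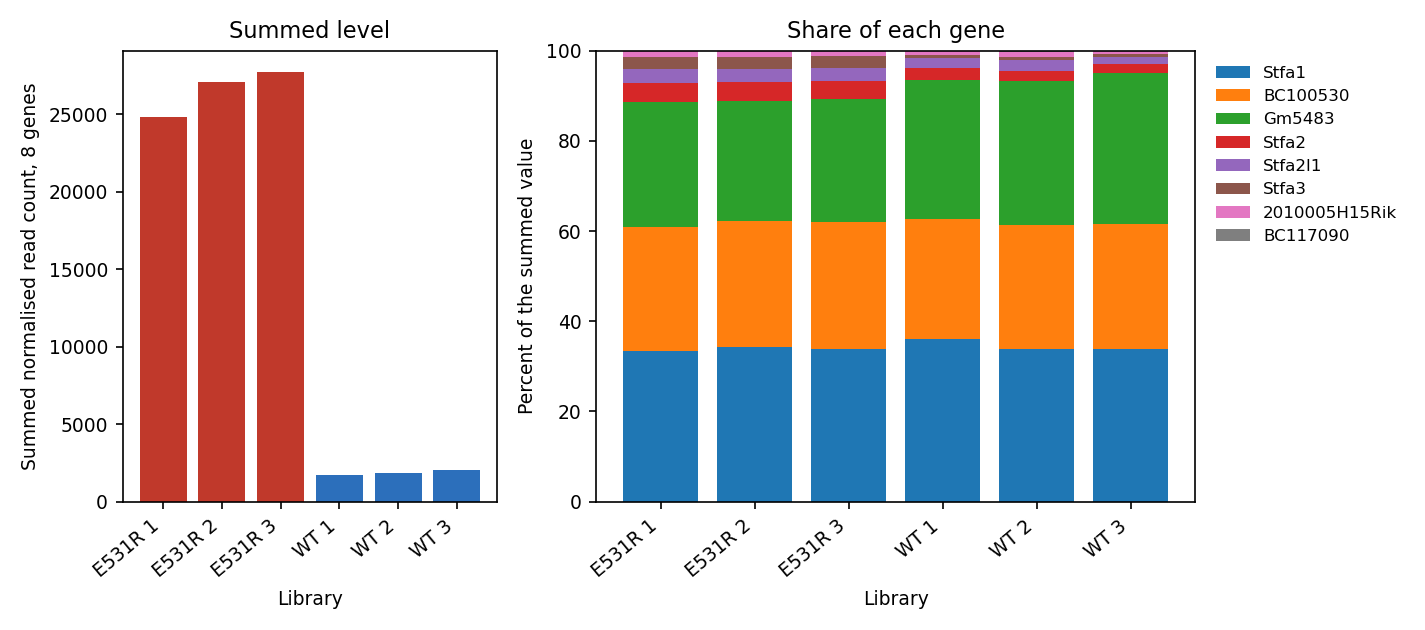
Left, summed normalised read count of the 8 stefin A genes in each library, from 24817 to 27720 in the E531R libraries (red) and from 1705 to 2021 in the WT libraries (blue). Right, percent of that sum from each gene in each library; Stfa1, BC100530 and Gm5483 hold 88.7% to 89.2% in the E531R libraries and 93.4% to 95.1% in the WT libraries.

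The order of the replicates within a group was not the same in all copies. In the E531R group replicate 1 was the lowest library for 6 of the 8 genes, all but BC117090 and 2010005H15Rik. In the WT group replicate 3 was the highest library for Stfa1, Stfa3, BC100530 and Gm5483 and the lowest for Stfa2, Stfa2l1 and 2010005H15Rik. The authors' deposited table, with its sign turned so that positive means higher in E531R, gives log2 fold changes of 5.27 for Stfa3, 4.44 for Stfa2, 4.11 for Stfa2l1, 3.73 for BC100530 and 3.70 for Stfa1. The same authors' deposited table gives 3.66 for 2010005H15Rik, 3.48 for Gm5483 and 2.11 for BC117090. In the authors' deposited table Stfa1 ranks 4 by p-value among all rows and BC117090 ranks 805. The genes were chosen from the same values for their rise, so these ranks are a description.

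Further stefin A genes lie in the same stretch of chromosome and were not among the 8. Gm5416, between Gm5483 and 2010005H15Rik and named Csta3 in RefSeq, had 59.8, 50.6 and 58.4 in the E531R libraries, against 4.79, 4.59 and 5.51 in the WT libraries. It was 11.3-fold higher in E531R cells, with a log2 fold change of 3.26 (SE 0.20; limma, Benjamini-Hochberg adjusted p = 7.1e-05). The WT values rest on 3, 4 and 7 reads. Gm5416 passed the minimum level only through the E531R libraries, so its p-value is given as a description. All of its 50-base stretches are its own. Csta1, 25.6 kb before the cluster, was almost absent, with 0.232 ± 0.401 in E531R cells and 0.795 ± 0.798 in WT cells, and was not tested. Gm15845, singled out after its values were seen, overlaps BC100530 on the opposite strand. It averaged 20.1 ± 3.04 in E531R cells and 1.97 ± 1.08 in WT cells (log2 fold change 2.88, limma adjusted p = 0.00157), and since no strand setting is given, its reads cannot be told apart from those of BC100530. With 2, 1 and 2 WT reads, Gm15845 also passed the minimum level only through the E531R libraries.

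Outside the cluster, 41 gene rows lay within 1 Mb. Of these 21 were tested, of which 2 were higher and 1 lower in E531R cells, against 10.4% higher and 9.53% lower of all tested genes. Their median log2 fold change was 0.08, against 0.01 over all tested genes. Cd86, 148.5 kb after the cluster and coding for a costimulatory ligand for T cells, averaged 41.7 ± 0.762 in E531R cells and 3.91 ± 0.700 in WT cells (SD, n = 3 each), 10.7-fold higher in E531R cells (log2 fold change 3.13, SE 0.23; limma adjusted p = 0.000137). Its WT values rest on 2, 4 and 5 reads, and it passed the minimum level only through the E531R libraries. The other tested gene nearest on that side, the peptide transporter gene Slc15a2, had 79.2, 112 and 83.7 in the E531R libraries, against 46.3, 47.1 and 10.2 in the WT libraries, and did not pass (log2 fold change 1.64, limma adjusted p = 0.0896). Without WT replicate 3 it was 0.94 with an adjusted p of 0.000343, and DESeq2 on the recovered reads also called it.

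The nearest tested genes on the other side showed small differences. Ccdc58, 64.7 kb before the cluster, averaged 730.6 ± 27.9 in E531R cells and 857 ± 19.3 in WT cells (log2 fold change -0.23, limma adjusted p = 0.0631). Fam162a, 85.2 kb before it, averaged 1527 ± 29.5 in E531R cells and 1288 ± 159 in WT cells (log2 fold change 0.25, limma adjusted p = 0.125). Without WT replicate 3 the adjusted p-values were 0.00153 for Ccdc58 and 5.95e-06 for Fam162a. The other calls, named after their values were seen, were Kpna1, an importin, at 0.40 and Pdia5, a disulfide isomerase of the endoplasmic reticulum, at -0.53 (limma adjusted p = 0.0432 and 0.0358). Kpna1 was lost without E531R replicate 1, 2 or 3 or WT replicate 1 or 2, and Pdia5 without E531R replicate 1, 2 or 3 or WT replicate 1, with adjusted p-values up to 0.163 and 0.146. Without WT replicate 3, 6 of the 21 neighbours were higher and 5 lower, where 47.4% of all tested genes were called in either direction.

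**Figure D4:**
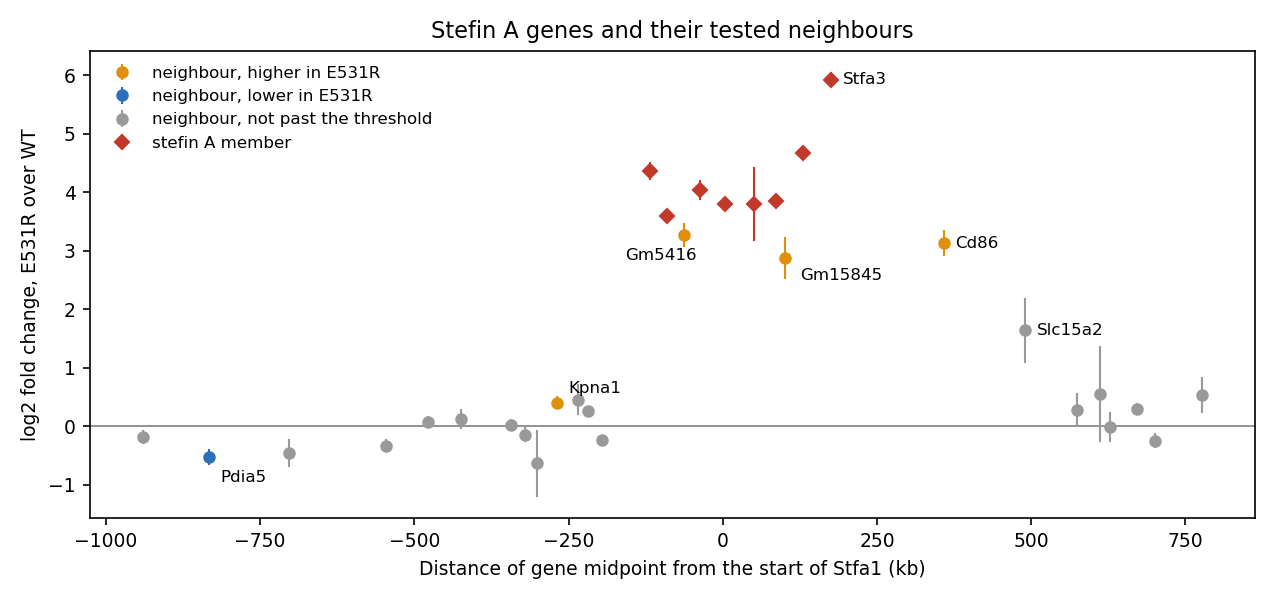
Log2 fold change of E531R over WT (y axis, bars 1 standard error) of the 8 stefin A genes (red diamonds) and the tested genes within 1 Mb (circles), by the distance of the gene's midpoint from the start of Stfa1 in kb (x axis). The stefin A genes lie between 3.60 and 5.93, Gm5416 at 3.26, Gm15845 at 2.88 and Cd86 at 3.13; Kpna1 lies at 0.40 and Pdia5 at -0.53.

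Several papain-like proteases, the family that stefins bind, were also higher. Of 13 genes of papain-like proteases and related proteins, Lgmn and Tinagl1 included, 10 were tested, 7 were higher in E531R cells and 3 did not pass, with a median log2 fold change of 1.08. Among all tested genes 10.4% were called higher. Ctss, a lysosomal protease of antigen-presenting cells, averaged 839.6 ± 68.8 in E531R cells and 101 ± 13.6 in WT cells (n = 3 each), 3.05 apart on the log2 scale (SE 0.13; limma adjusted p = 1.3e-05). Ctsc, the dipeptidyl peptidase that activates granule serine proteases, averaged 5495 ± 91.5 in E531R cells and 2064 ± 43.5 in WT cells (log2 fold change 1.41, limma adjusted p = 1.3e-05). Ctsh, an aminopeptidase, averaged 363 ± 37.8 in E531R cells and 95.0 ± 24.8 in WT cells (log2 fold change 1.95, limma adjusted p = 0.0005).

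Lgmn, the asparaginyl protease legumain, which some cystatins but not stefins are known to inhibit, averaged 93.9 ± 11.3 in E531R cells and 8.65 ± 4.43 in WT cells (log2 fold change 3.40, limma adjusted p = 0.000644). Ctsk, Ctsb and Tinagl1, a relative without protease activity, were the remaining higher genes, at 3.96, 0.76 and 0.58 on the log2 scale (limma adjusted p = 0.00139, 0.00178 and 0.0141). Lgmn, with 5, 4 and 17 WT reads, and Ctsk, with 0, 2 and 1, passed the minimum level only through the E531R libraries. The Tinagl1 call was lost without E531R replicate 1 or 2 or WT replicate 1, with adjusted p-values up to 0.0852. Ctsl, a classical stefin A target, averaged 1117 ± 27.5 in E531R cells and 1314 ± 119 in WT cells and did not pass (log2 fold change -0.23, limma adjusted p = 0.109), though it did without WT replicate 3 (-0.16, adjusted p = 0.0128). Ctsz and Ctso were at -0.12 and -0.0046 on the log2 scale (limma adjusted p = 0.573 and 0.987).

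Other members of the cystatin family changed unevenly. Of 20 such genes 6 were tested, and 3 were higher in E531R cells, against 10.4% of all tested genes. These 3 were Gm5416 above, Camp and Ngp. Camp, the antimicrobial peptide precursor whose front part is cystatin-like, averaged 2099 ± 183 in E531R cells and 214 ± 35.9 in WT cells (n = 3 each), 3.30 apart on the log2 scale (SE 0.14; limma adjusted p = 1.3e-05). Ngp, a cystatin-like neutrophil granule protein, averaged 20750 ± 953 in E531R cells and 3323 ± 714 in WT cells (log2 fold change 2.66, limma adjusted p = 4.0e-05).

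The classical inhibitors did not pass over all 6 libraries. Cstb, which codes for stefin B and lies outside the cluster, averaged 1501 ± 51.9 in E531R cells and 1432 ± 198 in WT cells (log2 fold change 0.08, limma adjusted p = 0.65). Cst3, the secreted cystatin C, averaged 5576 ± 336 in E531R cells and 4564 ± 1046 in WT cells (log2 fold change 0.31, limma adjusted p = 0.218). Cst7, the lysosomal cystatin F of leukocytes, averaged 3185 ± 113 in E531R cells and 3460 ± 438 in WT cells (log2 fold change -0.11, limma adjusted p = 0.476). Without WT replicate 3 Cstb passed at a log2 fold change of 0.19 (adjusted p = 0.00331) and Cst3 at 0.49 (adjusted p = 1.4e-07), so 5 of the 6 were then higher. In that setting 47.4% of all tested genes were called in either direction. The list's median log2 fold change was 1.49, and 9 of its 20 genes were listed at 0 in every library.

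**Figure D5:**
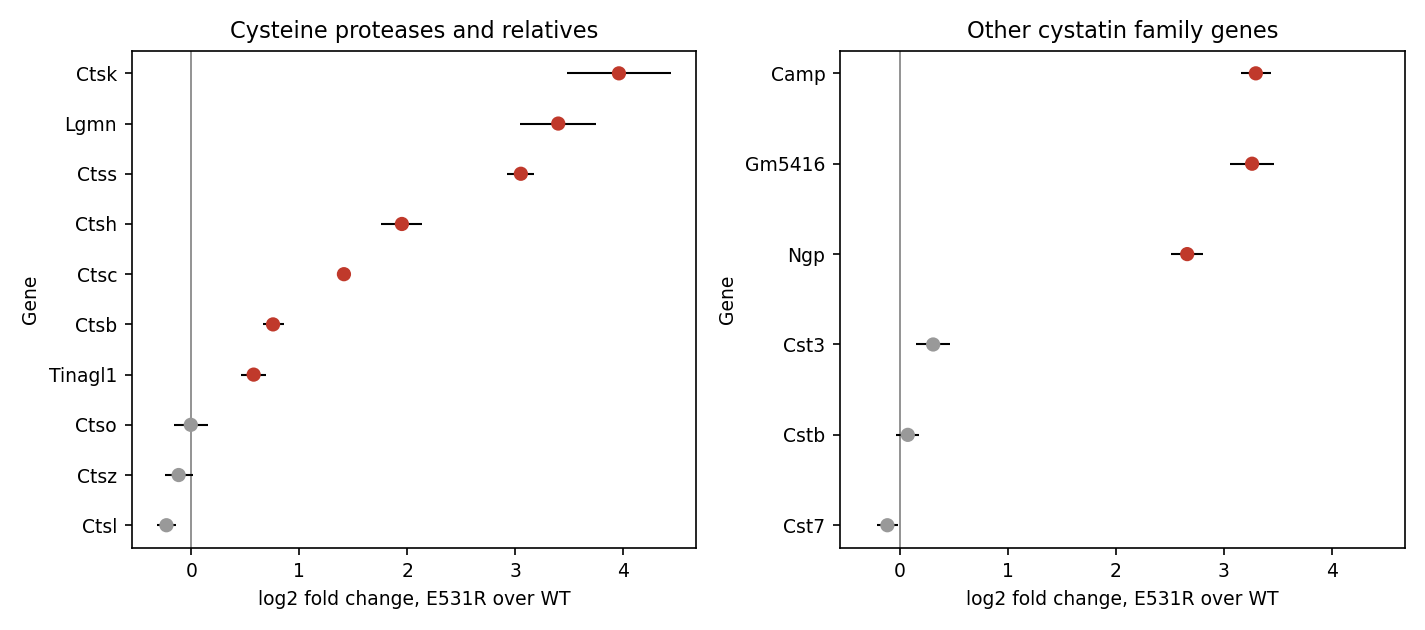
Log2 fold change of E531R over WT (x axis, bars 1 standard error) of tested papain-like proteases and relatives (left) and of other cystatin family genes (right), each row 1 gene; red points passed the test over all genes and grey points did not. Ctsk lies at 3.96 and Ctsl at -0.23, and Camp lies at 3.30 and Cst7 at -0.11.

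Protease inhibitors of other families moved in both directions. Of 14 tested serpins, WAP-domain proteins, tissue inhibitors of metalloproteases and relatives, 7 were higher and 3 lower in E531R cells, with a median log2 fold change of 0.42. The shares over all tested genes were 10.4% higher and 9.53% lower. Wfdc21 and Wfdc17, of the WAP family, were at 1.89 and 1.46 on the log2 scale (limma adjusted p = 8.7e-05 and 0.000368). Serpinb10 had 2.72 and Serpine2, also called protease nexin 1, -1.47 (limma adjusted p = 0.000528 and 0.000284). Serpinb10, with 3, 7 and 8 WT reads, and Timp1, also called higher, with 1, 1 and 0, passed the minimum level only through the E531R libraries. Without any 1 of E531R replicates 1, 2 and 3 or WT replicates 1 and 2, 4 of these 14 were called higher. Without any 1 of the E531R replicates or WT replicate 1, 1 was called lower.

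Markers of mature neutrophils and of macrophages and monocytes moved with the stefin A genes. For each marker list here and in the next paragraph, the shares over all tested genes were 10.4% higher and 9.53% lower. Of 22 tested neutrophil markers 19 were higher in E531R cells and the other 3 did not pass, with a median log2 fold change of 1.68. Their summed normalised read count ran from 71313 to 78078 in the E531R libraries and from 13296 to 16973 in the WT libraries. Of 13 tested macrophage and monocyte markers 10 were higher and 1 lower, with a median log2 fold change of 2.32, and their sum ran from 38382 to 42600 in the E531R libraries and from 28191 to 33401 in the WT libraries. Among the markers called higher, Fpr1, Fpr2, Mmp9 and Ifitm6 (neutrophil) and Cx3cr1 (macrophage and monocyte) passed the minimum level only through the E531R libraries. Their WT means were 0, 0.765, 5.14, 4.45 and 5.70 in that order. Of 8 early granulocyte markers 5 were higher and 1 lower, with sums of 344144 to 360567 in the E531R libraries and 276312 to 347948 in the WT libraries. Without E531R replicate 1, 2 or 3 or WT replicate 1, between 2 and 3 of these early markers were called higher. The part of these cell types in the levels of the stefin A genes was not tested.

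Epidermis, the other tissue known for stefin A, left little trace. Its 8 markers summed to 43.8 to 52.1 in the E531R libraries and 53.5 to 73.5 in the WT libraries, with Krt14, Krt1 and Dsg1a listed at 0 in every library. Of the 3 that were tested Krt10, named after its values were seen, was lower in E531R cells (log2 fold change -1.08, limma adjusted p = 0.0238), a call lost without E531R replicate 2 or 3 or WT replicate 1, with DESeq2 and with no filter. Sbsn was called higher without WT replicate 2. Eosinophil markers summed to 127 to 142 in the E531R libraries and 48.2 to 66.1 in the WT libraries, with 1 of 1 tested marker higher. That gene, Siglecf, carried the sum, at 132 ± 7.39 in E531R cells and 55.3 ± 8.79 in WT cells (SD, n = 3 each), and Epx, Prg2, Prg3 and Ccr3 averaged at most 2.50 in either group. Markers of mast cells and basophils had 1 of 2 tested genes lower and those of stroma and endothelium 1 of 2. Without WT replicate 3 both of these mast cell and basophil genes were lower, and the other stroma and endothelium gene, Col1a1, was higher. Col1a1 passed the minimum level only through the E531R libraries, with means of 17.4 in E531R cells and 6.22 in WT cells. The calls without WT replicate 3 stand beside the share over all genes. In that setting 47.4% of all tested genes were called in either direction. B cell, T and NK cell and erythroid markers had 1 tested gene each, which did not pass, though that of B cells was lower without WT replicate 3, and the haemoglobin genes Hba-a1 and Hbb-bs were listed at 0.

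The 5 other tested genes with profiles most like the mean profile of the stefin A genes over the 6 libraries were Cyp4a12a, Pknox2, Pira2, Cacnb2 and Fpr1. Likeness was the root mean square difference between centred log2 profiles, at 0.159, 0.165, 0.169, 0.176 and 0.214 in that order. The stefin A genes themselves stood between 0.162 for Stfa2l1 and 0.848 for Stfa3. Pknox2, a homeobox gene, averaged 1774 ± 27.8 in E531R cells and 98.7 ± 4.50 in WT cells (SD, n = 3 each), and Cacnb2, a calcium channel subunit, 326 ± 10.1 in E531R cells and 16.1 ± 4.43 in WT cells. Cyp4a12a, a cytochrome P450, averaged 81.7 ± 9.36 in E531R cells and 3.91 ± 0.700 in WT cells, and Pira2, an immunoglobulin-like receptor, 53.2 ± 2.10 in E531R cells and 2.47 ± 0.928 in WT cells. Fpr1, the formyl peptide receptor and a marker in the neutrophil list, averaged 20.5 ± 3.06 in E531R cells and was listed at 0 in the 3 WT libraries. These genes were selected for their likeness, so their values are a description.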

How the data were processed

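The submitters' processing notes name FastQC, cutadapt, HISAT2, SAMtools, featureCounts, DESeq2 and the build GRCm38. Versions, the gene annotation, the strand setting and the treatment of reads matching several genes were not given in sources used here. The deposited values, of unit signal, are gene read counts that the authors divided by 1 size factor per library, per the file headers and the values. In each library 100% of values were whole multiples, within 0.001, of the worth of 1 read (0.695 to 1.60), so whole reads were recovered, from 14161139 to 33459668 a library. Reads are not independent molecules, and floors cover counting error only. The authors' deposited log2 fold change runs WT over E531R and was turned here, the authors' deposited p-value gave ranks only, and the authors' deposited test statistic, a score, was not used. A shift shared by most genes would be hidden by size factors.

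Groups came from the sample titles. The test was limma 3.58.1 (R 4.3.3, trend on the mean) fitted to log2(value + 1) of genes with a mean of at least 10, without covariates, two-sided, with Benjamini-Hochberg adjustment over all 12991 tested genes and a threshold of 0.05; it was tested on simulated data. The added 1 makes log2 changes of low genes too small, and folds are ratios of mean values. The 8 genes and the 13 gene lists were chosen with earlier results of these data known. Named besides the 8 genes were up to 4 called genes with the smallest adjusted p of each protease and inhibitor list, the 2 nearest tested genes on each side and the 5 most alike in profile; other names were added after their values were seen.

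Annotation, coding and transcript sequences came from GENCODE M21 and promoters from RefSeq. Uniqueness had been planned against the genome and was measured against the transcripts of all other genes, on both strands. Coding identity was taken over aligned, gap-free bases with Biopython 1.88, and figures were drawn with matplotlib 3.10.9. As alternatives, 0.5 or 10 was added before the log, the minimum mean was dropped or set to 50, scaling was by TMM or the upper quartile, recovered reads were tested with edgeR 4.0.16 (quasi-likelihood) and DESeq2 1.42.0, a replicate block was fitted, and each library was left out in turn. Uniqueness was also taken with stretches of 36, 75 and 100 bases.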

Additional observations from a re-analysis of the deposited data

How the results depend on the processing

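The log2 fold change of each of the 8 stefin A genes was positive under all 15 alternatives, 14 for BC117090, which a minimum mean of 50 left out. Their median, 3.95, was 4.19 with a pseudocount of 0.5 and ran from 3.90 to 4.33 when 1 library was left out, the highest without WT replicate 2. In that setting BC117090 stood at 4.48 and 2010005H15Rik at 4.19, against 3.79 and 4.04 with all libraries. WT replicate 2 held 4 reads of BC117090, against 0 and 1 in WT replicates 1 and 3. The cause of these shifts was not tested. The scalings moved the median of all genes by little, to 0.02 with TMM and -0.03 with the upper quartile. Leaving out 1 library, the count of all genes higher ran from 819 to 3159 and of lower from 746 to 2999, both highest without WT replicate 3; edgeR called 1393 and 1251, DESeq2 1372 and 1234. Leaving out 1 library, 6 to 7 papain-like genes were higher and 0 to 1 lower, 3 to 5 other cystatin genes were higher, and of the genes within 1 Mb, those between the stefin A genes included, 3 to 8 were higher and 0 to 5 lower. That last pair was 4 higher and 1 lower with all libraries, 1 higher at a mean of at least 50, where fewer genes are tested, and 2 lower with the upper quartile. The median share of stretches found in no other gene, 78.5% at 50 bases, was 67.3% at 36, 91.3% at 75 and 96.2% at 100 bases. The replicate numbers are not shown to pair the libraries: same-numbered libraries correlated at 0.00174, 0.192 and 0.238 in their deviations from the group means. With the replicate number as a block 1179 genes were higher and 1062 lower, the median of the 8 genes stayed at 3.95, and the calls of Kpna1 and Tinagl1 were lost. Limits are the few WT reads of BC117090 and Stfa3, shared sequence within groups of copies, 3 libraries a group and WT replicate 3.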
